A study of Mus musculus with 20 samples.

Results

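The genes described here encode the nuclear pore complex and the receptors that carry protein and RNA through it. They were chosen by mouse gene symbol alone: nucleoporins (Nup, Nupl, Ndc1, Pom121, Tpr, Rae1, Aaas, Seh1l and Ranbp2), importins and transportins (Kpna, Kpnb, Ipo and Tnpo), exportins (Xpo and Cse1l) and the genes of the Ran cycle (Ran, Rcc1, Rangap1 and Ranbp1). The rule found 58 of the 34937 genes counted, and no expression value entered it. RNA was measured in single 8-cell mouse embryos at embryonic day 2.5. All mothers carried Zp3-Cre, which recombines conditional alleles in growing oocytes, and the comparison asks what the loss of the maternal supply of Ehmt2, the gene of the histone H3 lysine 9 methyltransferase G9a, changes in the embryo.

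The 9 control embryos (Ehmt2Cntr) had Ehmt2F/+ Zp3-Cre mothers. Of these, 3 had the zygotic Ehmt2 genotype +/- and 6 had +/+. The 10 maternally depleted embryos (Ehmt2Mat) had Ehmt2F/- Zp3-Cre mothers, and 5 were -/- (Ehmt2M/Z) and 5 were +/- (Ehmt2M/+). Both groups were of mixed background and, by the methods of the study, had Ehmt2+/- fathers, and maternal depletion by Zp3-Cre acts in the oocyte, so that the embryos of a group still differ in their own alleles. No +/+ embryo is among the mutants and no -/- embryo among the controls. A further control, embryo 4, was not analysed here. The labels name no mother or litter, so the p-values below measure the spread between embryos that may share a mother.

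A nuclear pore is a ring of nucleoporins set into the nuclear envelope: Y-shaped outer rings and an inner ring form the scaffold, membrane nucleoporins anchor it, and nucleoporins rich in phenylalanine-glycine repeats fill the channel. Importins bind cargo in the cytoplasm and release it in the nucleus when they meet Ran-GTP, whereas exportins bind cargo together with Ran-GTP. The direction comes from Rcc1, which loads Ran with GTP on chromatin, and from Rangap1 with its helpers Ranbp1 and Ranbp2, which discharge Ran in the cytoplasm. The early embryo depends on this system to bring maternal and newly made factors into its nuclei.

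Total counts ranged from 12985149 to 30053248 in controls and from 8231646 to 30602434 in Ehmt2Mat embryos, and the 58 members took 0.83% to 1.17% and 0.86% to 1.10% of them. Levels are given in CPM (counts scaled to library size, with TMM factors), where a floor of 3 counts corresponds to 0.098 to 0.364 CPM depending on the library, and between genes in RPKM (CPM per kilobase of exon). The cDNA was 3′-biased, so division by exon length can overstate short genes, and rankings by RPKM are rough. The 8 markers of cleavage-stage and morula embryos summed to 2423 to 4273 CPM in controls and 3090 to 4414 CPM in mutants, and 4 of the 7 tested differed between the groups (Tfap2c and Tead4 higher, Klf5 and Gata6 lower in mutants). The 8 oocyte transcripts summed to 48.3 to 328 and 119 to 388 CPM, with Oosp1 higher in mutants as 1 of 7 tested, and the 6 transcripts of the 2-cell stage to 0.118 to 18.6 and 0.121 to 15.0 CPM. Ehmt2 itself had 66.6 to 253 CPM in controls (median 133) and 58.7 to 159 CPM in mutants (median 94.8), and the groups overlapped (log2 fold change -0.47 ± 0.24 (SE), adjusted p = 0.233 by edgeR's quasi-likelihood test). The counts cover the whole gene, so reads outside the deleted exons are included and the level does not check the maternal genotype.

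Some of the libraries also held transcripts that are markers of other cell types. Of the 8 markers of blood and stroma, the 7 other than Pecam1, which all embryos expressed at 46.4 CPM or more, summed to 0.0463 to 105 CPM in controls (median 4.04) and 0 to 183 CPM in mutants (median 16.2). Collagen transcripts (Col1a1, Col1a2 and Col3a1 together) reached 6.74 to 53.1 CPM in 7 embryos, which were control 10 and Ehmt2Mat embryos 1 to 6, and at most 1.39 CPM in the other 12. Of the 8 markers of cumulus and granulosa cells, Amh, Foxl2, Fshr and Ptx3 were at 0 in every embryo and the 8 summed to at most 5.02 CPM, except for 40.1 CPM in Ehmt2Mat embryo 3. Collagen transcripts at 6.74 CPM or more were thus more frequent among mutants (6 of 10) than among controls (1 of 9). The 7 embryos follow one another in the order of the labels, which name no batch. They had 13204 to 16412 genes with a count, and the other 12 had 12068 to 14654. Of the other 12, controls 1, 2 and 8 had 9.85, 14.4 and 12.2 CPM of the 7 blood and stroma markers, and the rest had at most 4.04 CPM. Ehmt2Mat embryo 6, among the 7 embryos with more collagen, had 15.5 CPM of these markers. The source of the marker transcripts and their part in the results were not tested. The values in the 12 embryos with at most 1.39 CPM of collagen transcripts (8 controls and 4 mutants) are given beside each member that passed the test, as values with little collagen.

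To show what lies before the genes on which the results turn, sequences upstream of the start sites are given for the 4 genes of the Ran cycle and for Nup62 and Nup88. They come from RefSeq promoters of GRCm38.p6, run 5′ to 3′ on the strand of the gene and leave out bases that lie in an annotated exon. The RefSeq starts used for Ran, Ranbp1 and Rcc1 lie inside the genes as counted. For Ranbp1, 30 bases around its NRF1 core are shown. Capitals mark matches on either strand to 4 motifs. The E-box is CACGTG. The second motif is named by its letters, CCAAT. The GC box searched was GGGCGG. The core bound by the factor NRF1 is GCATGCGC. Both strands of the palindromic GCGCATGCGC match the NRF1 core, and the 2 matches overlap.
Ran, chr5:129019906-129020068, plus strand, 250 to 88 bases before the start: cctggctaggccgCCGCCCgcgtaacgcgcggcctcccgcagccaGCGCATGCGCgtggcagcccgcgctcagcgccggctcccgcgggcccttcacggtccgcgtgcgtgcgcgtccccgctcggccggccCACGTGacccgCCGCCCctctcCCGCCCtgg
Ranbp1, chr16:18248815-18248844, minus strand, 150 to 121 bases before the start: ggcgcggccggGCATGCGCcgcgggcgttt
Rcc1, chr4:132345751-132346000, minus strand, 250 bases before a RefSeq start that lies inside the gene as counted: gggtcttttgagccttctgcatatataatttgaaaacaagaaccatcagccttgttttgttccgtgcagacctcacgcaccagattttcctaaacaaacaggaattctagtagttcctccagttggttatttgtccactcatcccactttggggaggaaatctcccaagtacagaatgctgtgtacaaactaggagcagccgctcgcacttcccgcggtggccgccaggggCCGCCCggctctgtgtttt
Rangap1, chr15:81730004-81730169, minus strand, 250 to 85 bases before the start: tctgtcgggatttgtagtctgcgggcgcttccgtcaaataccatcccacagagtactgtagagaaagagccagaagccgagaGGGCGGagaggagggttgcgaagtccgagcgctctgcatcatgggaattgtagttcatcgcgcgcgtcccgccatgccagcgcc
Nup62, chr7:44815838-44816087, plus strand, 250 bases before the start: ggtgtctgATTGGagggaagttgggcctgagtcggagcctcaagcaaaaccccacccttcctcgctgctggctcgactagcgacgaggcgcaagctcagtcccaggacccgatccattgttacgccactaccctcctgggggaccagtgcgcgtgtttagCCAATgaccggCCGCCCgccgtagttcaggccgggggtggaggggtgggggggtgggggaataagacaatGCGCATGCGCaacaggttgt
Nup88, chr11:70969974-70970212, minus strand, 239 bases before the start: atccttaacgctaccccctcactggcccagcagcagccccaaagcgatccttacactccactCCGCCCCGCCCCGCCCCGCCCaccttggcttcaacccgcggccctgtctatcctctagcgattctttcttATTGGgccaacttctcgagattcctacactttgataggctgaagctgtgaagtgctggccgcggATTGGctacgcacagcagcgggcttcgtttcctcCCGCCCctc

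RefSeq listed 54 promoters for 47 of the 58 members, each of 300 bases (250 before and 50 after the start). The NRF1 core stood in 8 of these 54 (14.8%) and in 2.7% of all 32851 promoters. The GC box stood in 35 (64.8%, against 35.7% of all), CCAAT in 26 (48.1%, against 37.4%) and the E-box in 9 (16.7%, against 7.2%). Of the 9 promoters of higher members, 2 held the E-box, 4 CCAAT, 8 the GC box and 3 the NRF1 core, and the 1 promoter of a lower member, that of Ranbp1, held all but the E-box. A single promoter allows no comparison of the directions. The shares over all promoters include genes whether or not they were expressed in these embryos, and no share over expressed genes was taken. The contrasts are therefore not shown to be particular to these members. The motif matches describe the sequence and are not evidence of binding.

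All 58 members passed the filter on low counts and were tested among 11754 genes with edgeR's quasi-likelihood test, and adjusted p-values are Benjamini-Hochberg values over all of those genes. At an adjusted p of 0.05, 9 members (15.5%) were higher in Ehmt2Mat embryos, where 4.37% of all genes tested were higher, and 2 (3.4%) were lower, where 4.98% of all genes were lower. The other 47 did not pass. With little collagen, 0 of the 58 passed, where 0.476% of genes did. Over all 58 the median log2 fold change was 0.05, and over all genes tested it was -0.04. Members went both ways, with 30 positive and 28 negative values, and 23 of 58 had an unadjusted p under 0.05, as did 2734 of 11754 genes tested. Nucleoporins had a median of 0.24 (4 of 30 higher, 1 lower), and receptors together with the Ran cycle had a median of -0.13 (5 of 28 higher, 1 lower). The groups' CPM ranges overlapped for every one of the 58 members, and 0.519% of all genes tested had ranges that did not overlap.

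**Figure D1:**
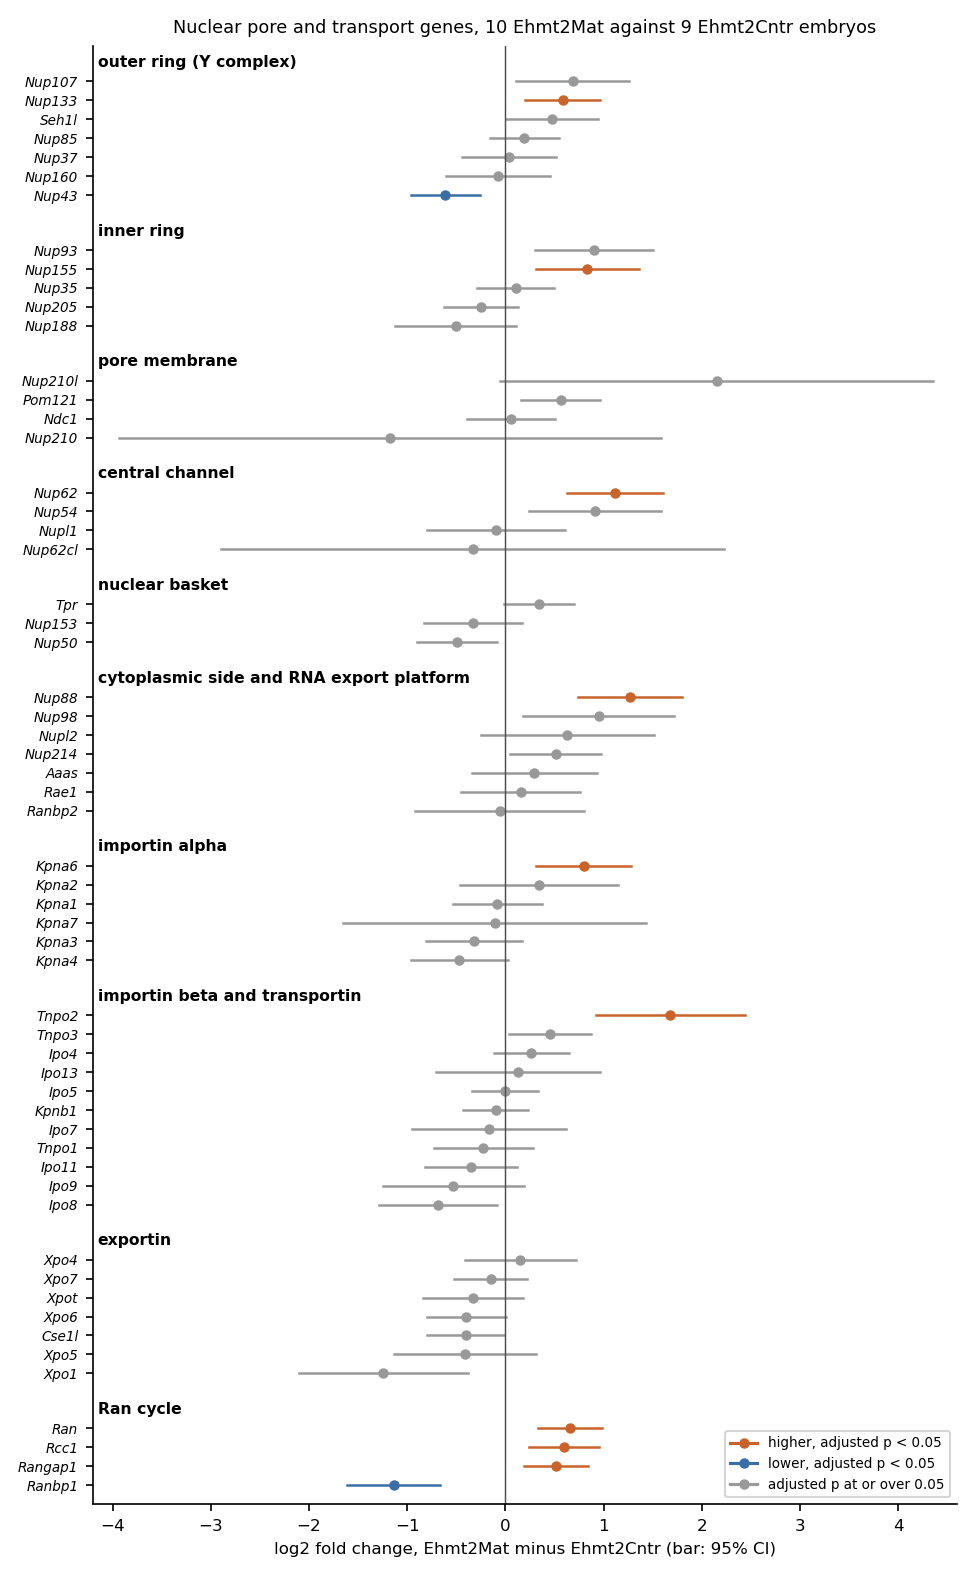
Log2 fold change (Ehmt2Mat minus Ehmt2Cntr, x axis) of the 58 members with its 95% confidence interval (bar), grouped by role; orange and blue mark the 9 higher and 2 lower members at an adjusted p under 0.05. All 4 Ran cycle genes are coloured, no exportin is, and the widest intervals belong to Nup210, Nup62cl and Nup210l.

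The Ran cycle was the one role group in which every gene passed the test. Of its 4 genes, 3 were higher and 1 was lower in Ehmt2Mat embryos, where 4.37% and 4.98% of all genes tested were. The role groups were written with earlier results of these data known, so this depends on how they were drawn. Ranbp2, the other helper of Rangap1, was placed with the cytoplasmic side and did not pass (log2 fold change -0.06, adjusted p = 0.959 by edgeR). The 4 Ran cycle genes also had the highest median level of any role group, with 95.1 to 140 RPKM over all embryos.

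Ran (chr5:129020069-129024323, plus strand), the small GTPase whose nucleotide state gives transport its direction, had 194 CPM in the lowest control, 248 CPM at the median and 336 CPM in the highest. In Ehmt2Mat embryos it had 275, 387 and 638 CPM. Of the 10 mutants, 8 were above every control, and the overlap came from control 10 (336 CPM) and mutants 1 and 2 (275 and 308 CPM). The log2 fold change was 0.66 ± 0.16 (SE), or 1.58-fold (adjusted p = 0.00942), and an exact two-sided permutation test of log2(CPM + 1) over the 92378 splits gave an unadjusted p of 0.000152. With little collagen the log2 fold change was 0.75 (adjusted p = 0.0765). Of the 50-base windows in its transcripts, 14.1% also occur in other genes, mainly the pseudogene Gm13461.

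Ranbp1 (chr16:18239784-18248732, minus strand), which binds Ran-GTP and helps Rangap1 act on it, went the other way. Controls had 133 CPM at the lowest, 361 CPM at the median and 431 CPM at the highest, and mutants had 80.8, 154 and 239 CPM. The other 7 controls had 339 CPM or more, above every mutant, whereas controls 9 and 10 had 186 and 133 CPM and lay among the mutants. The log2 fold change was -1.14 ± 0.23, a level 2.20-fold lower (adjusted p = 0.00304, exact permutation p = 0.00065). With little collagen it was -1.05 (adjusted p = 0.0659). Of its 50-base windows, 15.9% also occur in other genes, mainly Gm49776. Exons of Trmt2a cover 3.2% of its exon bases, and Trmt2a itself had a log2 fold change of 0.30 (adjusted p = 0.419).

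Rcc1 (chr4:132331919-132353605, minus strand), the exchange factor that charges Ran on chromatin, had 176, 294 and 486 CPM in controls (lowest, median, highest) and 282, 467 and 602 CPM in mutants. Mutant 10 was the low one, and 4 mutants were above every control (log2 fold change 0.59 ± 0.17, adjusted p = 0.0305). Rangap1 (chr15:81704248-81729919, minus strand), the GTPase-activating protein on the cytoplasmic side, had 163, 258 and 311 CPM in controls and 216, 363 and 463 CPM in mutants. All mutants but 6 and 10 exceeded every control (log2 fold change 0.52 ± 0.16, adjusted p = 0.0416). Rcc1 and Rangap1 stayed under an adjusted p of 0.05 in 14 and 6 of the 19 fits that each left out 1 embryo, with adjusted p up to 0.0554 without control 8 and up to 0.0758 without Ehmt2Mat embryo 7, while Ran and Ranbp1 stayed under it in all 19. With little collagen the log2 fold changes of Rcc1 and Rangap1 were 0.48 in both (adjusted p = 0.463 and 0.409).

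The ratio of Ran to Ranbp1 CPM within an embryo, which does not depend on library size, was between 0.509 and 2.54 in controls (median 0.682) and between 1.52 and 4.22 in mutants (median 2.83). Of the controls, 7 had ratios of 0.80 or less, control 9 had 1.32 and control 10 had 2.54. Control 10 is the one control with over 5 CPM of collagen transcripts. Among mutants, the 4 embryos with at most 1.39 CPM of collagen had ratios from 1.52 to 4.05, and the 6 with more had 2.07 to 4.22.

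**Figure D2:**
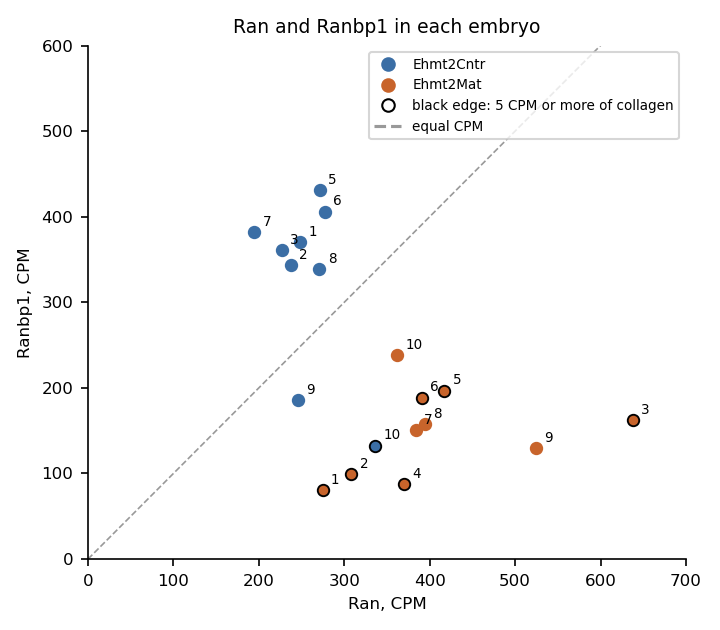
Ran (x axis) and Ranbp1 (y axis) CPM in each of the 19 embryos, numbered as in the labels; the dashed line marks equal CPM and a black edge marks the 7 embryos with 5 CPM or more of collagen transcripts. The 7 controls other than 9 and 10 lie above the line, and controls 9 and 10 and all mutants lie below it.

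Among the 30 nucleoporins, 4 were higher and 1 was lower. Nup88 (chr11:70943058-70969973, minus strand), a partner of Nup214 on the cytoplasmic face, had 25.6, 61.6 and 108 CPM in controls and 91.3, 153 and 263 CPM in mutants. All mutants but number 2 (91.3 CPM) were above the highest control, control 8 (log2 fold change 1.27 ± 0.26, 2.41-fold, adjusted p = 0.00296, exact permutation p = 6.5e-05). With little collagen its log2 fold change was 1.18 (adjusted p = 0.121). Of the other 6 genes of the cytoplasmic side and RNA export platform none passed the test, and the median log2 fold change of all 7 was 0.51. Nup98, which contacts both sides of the channel and messenger RNA exporters, had 4.25, 21.8 and 42.1 CPM in controls and 23.3, 37.4 and 77.8 CPM in mutants (0.95 ± 0.37, adjusted p = 0.111). Ranbp2, the large nucleoporin of the cytoplasmic filaments, had 12.8, 92.3 and 200 CPM in controls and 10.3, 99.9 and 172 CPM in mutants (-0.06 ± 0.42, adjusted p = 0.959). Aaas (aladin) had the highest RPKM of these 7, with 39.4 over all embryos, and spanned 36.9 to 161 CPM in controls and 20.6 to 142 CPM in mutants (0.30 ± 0.31, adjusted p = 0.631). Its mean CPM (64.0 in controls and 78.4 in mutants) was below that of Nup88 (69.0 and 166) and Ranbp2 (99.7 and 96.0).

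Nup62 (chr7:44816088-44830809, plus strand), a phenylalanine-glycine nucleoporin of the central channel, had 45.7, 83.1 and 145 CPM in controls and 91.8, 181 and 291 CPM in mutants. In 7 of 10 mutants it was above every control, and mutants 6, 8 and 10 (91.8, 121 and 125 CPM) lay within the range of the controls (log2 fold change 1.11 ± 0.24, 2.16-fold, adjusted p = 0.00445, exact permutation p = 0.000476). With little collagen the value was 0.88 (adjusted p = 0.176). It also had the highest level of the central channel group, with 48.8 RPKM. The other 3 genes of this group, Nup54, Nupl1 and Nup62cl, did not pass the test, and the group's median log2 fold change was 0.41. Nup54, the partner of Nup62 in the channel, was outside the threshold with a log2 fold change of 0.91 ± 0.32 (adjusted p = 0.0754). DESeq2 called Nup54 higher. Of the 50-base windows of Nup54, 13.9% also occur in other genes, mainly Gm15790.

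In the outer ring, Nup133 (chr8:123897123-123949265, minus strand) was higher and Nup43 (chr10:7667503-7678881, plus strand) was lower, although both proteins belong to the same Y complex. Nup133 had 74.7, 124 and 163 CPM in controls and 141, 161 and 312 CPM in mutants, of which 4 were above every control (log2 fold change 0.58 ± 0.19, adjusted p = 0.0478). Nup43 had 143, 181 and 276 CPM in controls and 84.2, 117 and 179 CPM in mutants, and 8 of 10 mutants were below every control (-0.61 ± 0.17, adjusted p = 0.0254). Nup43 passed in 18 of the 19 fits with 1 embryo left out, and without control 7 its adjusted p was 0.0562, whereas Nup133 passed in 6 of them. With little collagen the log2 fold changes were 0.68 for Nup133 (adjusted p = 0.293) and -0.80 for Nup43 (adjusted p = 0.134). Of the 50-base windows of Nup133, 9.3% also occur in other genes. Nup107, the neighbour of Nup133 in the complex, spanned 12.8 to 104 CPM in controls and 66.5 to 128 CPM in mutants (0.69 ± 0.28, adjusted p = 0.126), and Seh1l, which had the highest level of the ring with 109 RPKM, spanned 173 to 526 and 293 to 820 CPM (0.47 ± 0.23, adjusted p = 0.208). Over the 7 genes of the ring the median log2 fold change was 0.19.

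In the inner ring, Nup155 (chr15:8109313-8159857, plus strand) had 38.6, 81.2 and 158 CPM in controls and 53.6, 142 and 282 CPM in mutants (log2 fold change 0.84 ± 0.25, adjusted p = 0.0379). Mutant 3 was low (53.6 CPM) and 3 of 10 mutants were above every control, and the call held in 8 of the 19 fits with 1 embryo left out. With little collagen its log2 fold change was 1.11 (adjusted p = 0.0863). Nup93, the linker of the scaffold, lay just outside the threshold with 13.2, 49.5 and 68.8 CPM in controls and 45.8, 75.6 and 179 CPM in mutants (0.90 ± 0.29, adjusted p = 0.0508). Nup35 had the highest RPKM of the ring (33.1), but its mean CPM (107 in controls and 115 in mutants) was below that of Nup205 (166 and 140). The log2 fold change of Nup35 was 0.11 ± 0.19 (adjusted p = 0.809). Of its 50-base windows, 39.2% also occur in other genes, mainly Gm4353, so its level is uncertain. None of the 4 pore membrane genes passed: Pom121, which had the highest level of them, spanned 58.2 to 174 CPM in controls and 136 to 305 CPM in mutants (0.57 ± 0.19, adjusted p = 0.0672). Exons of Nsun5 cover 11.9% of the exon bases of Pom121. Nup210l, a paralog of Nup210, was scarce, with 0 to 3.79 CPM in controls and 0.82 to 6.20 CPM in mutants (2.15 ± 1.07, adjusted p = 0.227), and 4 controls had no count. Of the 9 controls, 8 had 0.603 CPM or less and control 10 had 3.79 CPM, and without control 10 the adjusted p was 0.0139.

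No gene of the nuclear basket, the filaments on the nuclear side, passed the test. Tpr spanned 221 to 536 CPM in controls and 362 to 672 CPM in mutants (log2 fold change 0.35 ± 0.17, adjusted p = 0.228). Nup153 spanned 128 to 431 and 121 to 328 CPM (-0.33 ± 0.24, adjusted p = 0.455), and Nup50 spanned 74.6 to 237 and 62.7 to 118 CPM (-0.49 ± 0.20, adjusted p = 0.124).

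**Figure D3:**
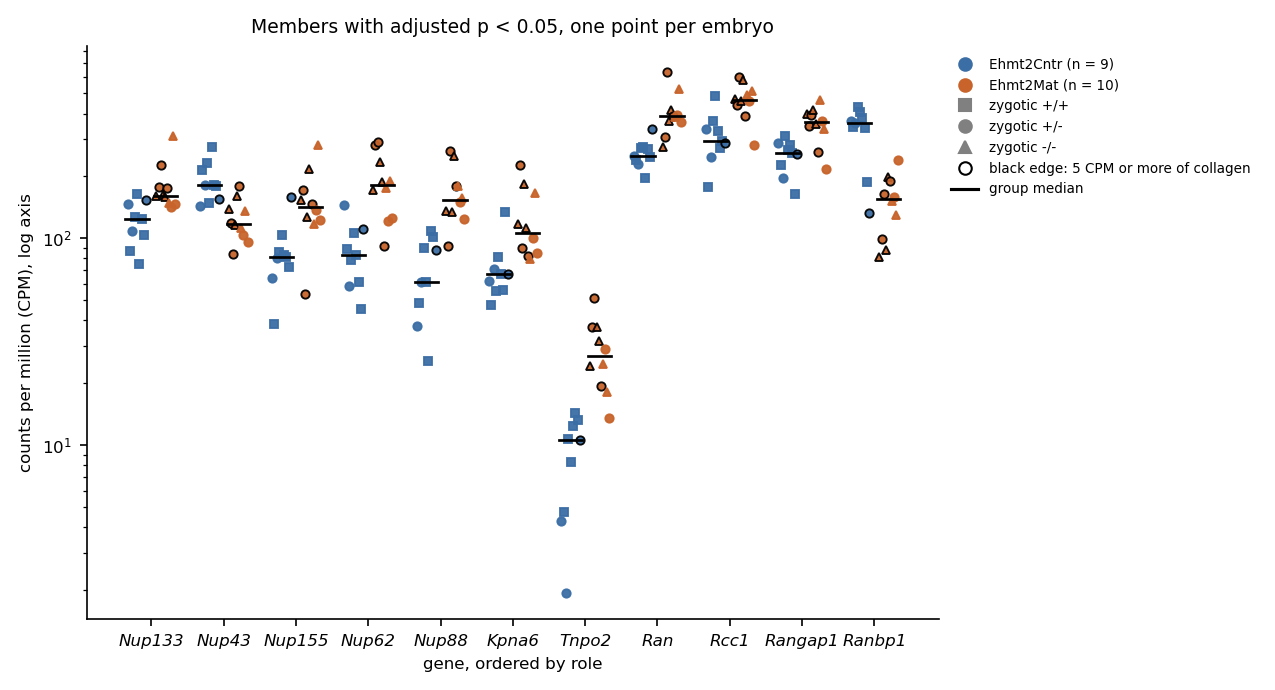
CPM (log axis) of the 11 members at an adjusted p under 0.05, with 1 point per embryo, controls in blue and mutants in orange, the shape giving the zygotic genotype, the bar the group median and a black edge 5 CPM or more of collagen transcripts. The groups overlap in every gene, and Tnpo2 has by far the lowest level of the 11.

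Of the import receptors, 2 were higher in mutants. Tnpo2 (chr8:85036915-85057583, plus strand), a transportin that imports RNA-binding proteins, had 1.93, 10.6 and 14.3 CPM in controls and 13.5, 27.0 and 51.6 CPM in mutants. All mutants but number 10 (13.5 CPM) were above the highest control, control 8 (log2 fold change 1.68 ± 0.37, 3.21-fold, adjusted p = 0.00525, exact permutation p = 4.3e-05). With little collagen its log2 fold change was 1.29 (adjusted p = 0.336). Exons of A230103J11Rik cover 10.9% of its exon bases, and since the counting used no strand, their reads cannot be told apart. That gene had means of 2.40 CPM in controls and 8.15 CPM in mutants (1.77, adjusted p = 0.0987). Its close relative Tnpo1 did not pass the test (-0.22 ± 0.24, adjusted p = 0.642), nor did Tnpo3, the importer of SR splicing proteins (0.45 ± 0.20, adjusted p = 0.168).

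Kpna6 (chr4:129643980-129672767, minus strand), one of the importin alphas that link cargo with a classical import signal to importin beta, had 47.5, 66.9 and 133 CPM in controls and 79.6, 106 and 226 CPM in mutants. Control 9 was the high control, 3 mutants were above it, and 7 of 9 controls were below every mutant (log2 fold change 0.80 ± 0.24, adjusted p = 0.0329). Without control 9 the adjusted p was 0.00826, and it exceeded 0.05 in 9 of the 19 fits with 1 embryo left out. With little collagen the log2 fold change was 0.57 (adjusted p = 0.479). The other 5 importin alphas did not pass. Kpna1 had the highest level (62.1 RPKM; -0.08 ± 0.22, adjusted p = 0.878) and Kpna7, known from oocytes and early embryos, the lowest (0.889 RPKM; -0.11 ± 0.75, adjusted p = 0.956).

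Kpna2, the importin alpha best known from proliferating and embryonic cells, had 12.9 to 29.3 CPM in controls and 1.02 to 43.0 CPM in mutants (0.34 ± 0.39, adjusted p = 0.663). In 7 of 10 mutants it was above every control, and mutant 7 had 1.02 CPM. Without mutant 7 the log2 fold change was 0.49 (adjusted p = 0.273), and among the embryos with at most 1.39 CPM of collagen transcripts it was -0.07 (adjusted p = 0.985). Of its 50-base windows 62.6% also occur in other genes, mainly the pseudogene Gm10184, so its level is uncertain.

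None of the importin betas passed the test apart from the transportin Tnpo2. Ipo5, which carries ribosomal proteins and histones, had 314 RPKM, the highest of all 58 members (979 to 1957 CPM in controls, 1095 to 1997 CPM in mutants, log2 fold change -0.00 ± 0.16 with a 95% interval of -0.34 to 0.34). Kpnb1, importin beta itself, had 74.2 RPKM (-0.10 ± 0.16, 95% interval -0.43 to 0.24). Both intervals include 0. They end short of the fitted log2 fold changes of Rangap1 (0.52) and Nup43 (-0.61), the smallest among the higher and the lower members that passed.

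**Figure D4:**
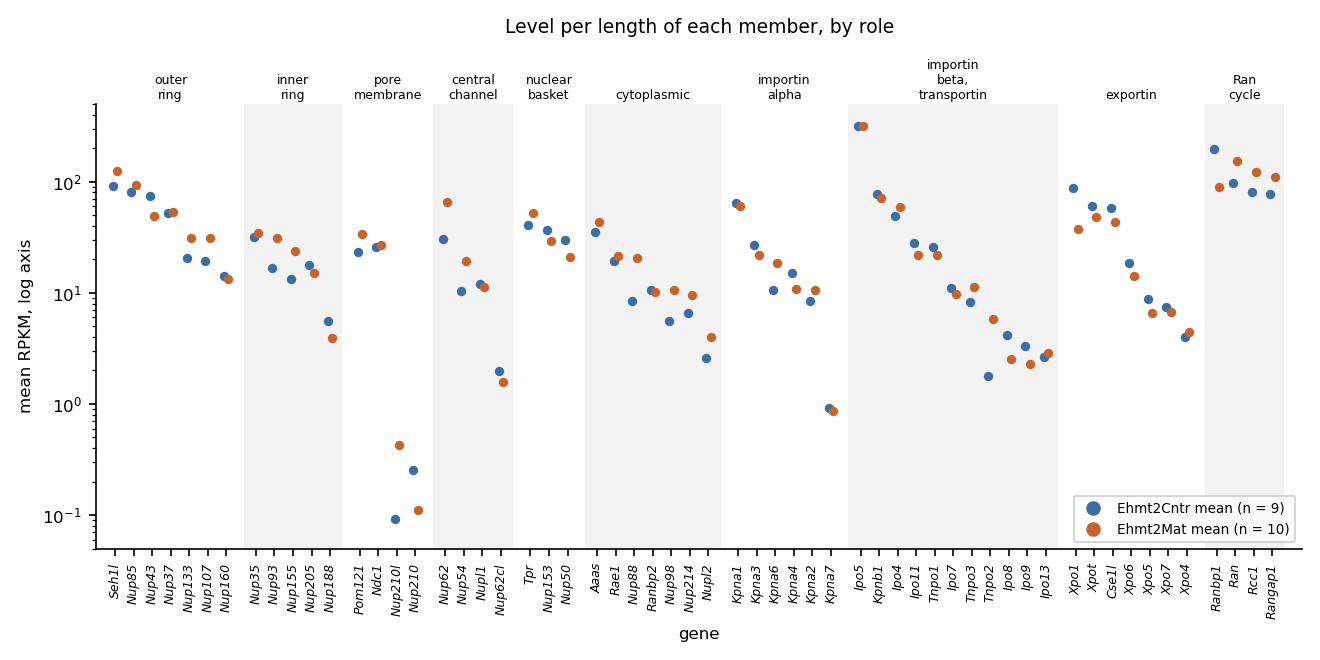
Mean RPKM (log axis) of each member in controls (blue) and Ehmt2Mat embryos (orange), by role and ordered by level within a role. Ipo5 is the most abundant member at 314 RPKM, the Ran cycle genes lie together near the top, and Nup210l and Nup210 are the least abundant.

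None of the 7 exportins passed edgeR's test, and their median log2 fold change of -0.40 was the lowest of any role group. Xpo1, which exports proteins with leucine-rich signals, was the most abundant of them (61.2 RPKM). Controls had 84.1 CPM at the lowest, 757 CPM at the median and 1013 CPM at the highest, and mutants had 53.0, 261 and 494 CPM. Controls 1, 2 and 3 (167, 399 and 84.1 CPM) lay in the range of the mutants, and the other 6 controls, with 554 CPM or more, were above every mutant (-1.25 ± 0.42, 2.37-fold lower, adjusted p = 0.0602, exact permutation p = 0.0411). Its adjusted p was between 0.0225 (without control 3) and 0.108 (without control 8) with 1 embryo left out, and under 0.05 in 4 of those 19 fits. Xpo1 was called lower by DESeq2, and by edgeR when genes under 10 counts in any embryo were left out. With little collagen its log2 fold change was -0.76 (adjusted p = 0.604). Cse1l, which returns importin alpha to the cytoplasm, had 181, 307 and 415 CPM in controls and 115, 225 and 340 CPM in mutants (-0.40 ± 0.19, adjusted p = 0.201).

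The comparison was repeated within subsets of the embryos. Among embryos with at most 1.39 CPM of collagen transcripts (8 controls and 4 mutants), 0 of 58 members passed the test, where 59 of 12385 genes (0.476%) did, and 11 members had an unadjusted p under 0.05 by edgeR, as did 1582 of the 12385 genes. The 11 members that passed over all 19 embryos kept their direction there, with absolute log2 fold changes from 0.48 (Rcc1) to 1.29 (Tnpo2) and adjusted p from 0.0659 (Ranbp1) to 0.479 (Kpna6). Among embryos of zygotic genotype +/- alone (3 controls and 5 mutants), 0 of 58 members passed, where 1 of 13401 genes (0.00746%) did. By edgeR, 3 of the 58 had an unadjusted p under 0.05. The share of all genes under that value was not counted, so the 3 are not read as a result. All 11 again had the same direction (adjusted p from 0.629 to 0.974). There, Nup155 (0.29) and Nup133 (0.33) had smaller fold changes than over all embryos, and Tnpo2 (2.39) had a larger one. These embryos are part of the 19, so the shared direction is no independent result.

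**Figure D5:**
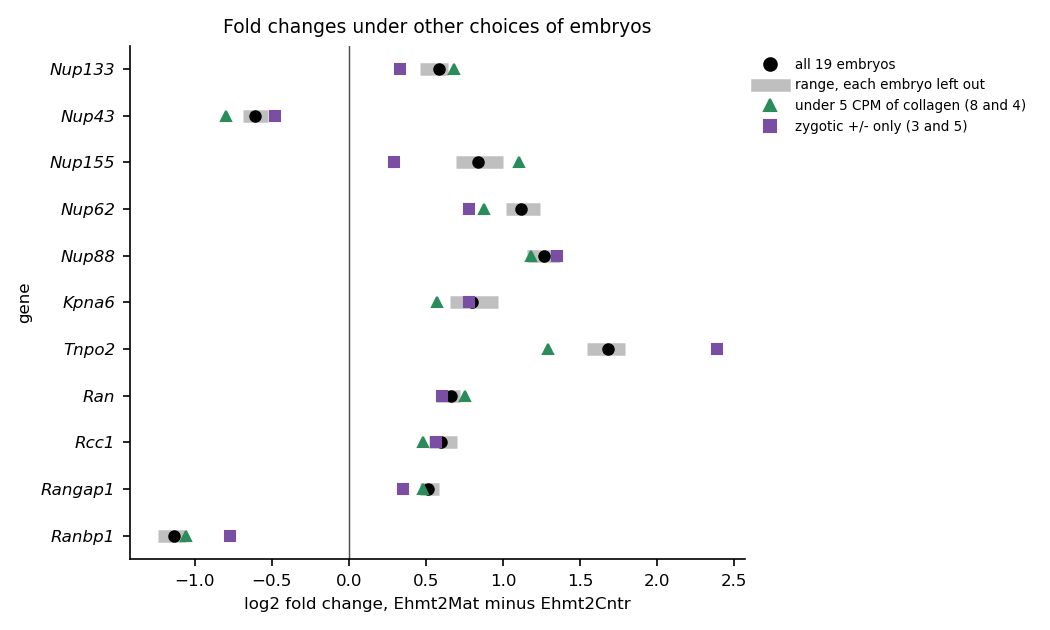
Log2 fold change (x axis) of the 11 members over all 19 embryos (black), the range when each embryo is left out (grey bar), and the values in the 12 embryos with little collagen transcript (green) and in the 8 embryos of zygotic genotype +/- (purple). Every value lies on the same side of 0 as the value over all embryos.

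The zygotic genotype was compared within each maternal group. Among mutants this asks whether a functional zygotic copy of Ehmt2 changed these genes. Among controls every embryo had a functional copy, and the comparison asks whether lack of the other allele changed them. Between 5 Ehmt2M/Z and 5 Ehmt2M/+ embryos, 0 of 56 members tested passed at an adjusted p of 0.05, where 0.0% of 12195 genes did, 0 members had an unadjusted p under 0.05, as did 270 of those genes, and DESeq2 called 0 members and 15 of 19059 genes. For Ran the log2 difference (Ehmt2M/Z minus Ehmt2M/+) was -0.08 with a 95% interval of -0.60 to 0.43, for Ranbp1 it was -0.39 (-1.03 to 0.25), for Nup88 0.09 (-0.53 to 0.71), for Nup62 0.08 (-0.59 to 0.75) and for Tnpo2 -0.14 (-0.99 to 0.72). Intervals of this width do not show that the genotypes were alike. Between 3 +/- and 6 +/+ controls, 0 of 57 members passed, where 0.0% of 12646 genes did, 2 members had an unadjusted p under 0.05 (Ipo11 and Nup37), as did 572 of those genes, and DESeq2 called 0 members and 106 of 16483 genes.

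Of 54 other genes of nuclear transport and the nuclear envelope, listed with earlier results of these data known, 50 were tested, and 5 were higher and 1 was lower in Ehmt2Mat embryos, where 4.37% and 4.98% of all genes were. In mRNA export (22 tested, 2 higher, 1 lower, median log2 fold change 0.23), Poldip3, a binding partner of the export complex TREX, had 79.6, 102 and 167 CPM in controls and 196, 350 and 479 CPM in mutants, with no overlap (2.84-fold, adjusted p = 0.000178). It was among the 0.519% of genes with separate ranges. It also passed among the embryos with little collagen transcript (1.43, adjusted p = 0.023). Pcid2, a subunit of the TREX-2 complex at the pore, was higher (1.62 ± 0.50, adjusted p = 0.0419), and Thoc3, a subunit of THO in TREX, was lower, with 76.6, 195 and 341 CPM in controls and 65.4, 96.4 and 126 CPM in mutants (-1.25 ± 0.22, adjusted p = 0.00114). With little collagen Thoc3 also passed (-1.29, adjusted p = 0.039), and Pcid2 did not (1.41, adjusted p = 0.457). Pcid2 stayed under an adjusted p of 0.05 in 7 of 19 fits with 1 embryo left out, and Poldip3 and Thoc3 in all 19.

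Among 16 other adaptors and Ran-binding proteins tested, 2 were higher and none was lower (median 0.04). Snupn, which carries spliceosomal RNPs to importin beta, had 70.9, 124 and 171 CPM in controls and 139, 237 and 336 CPM in mutants (0.90 ± 0.20, adjusted p = 0.00582), and Nmd3, the adaptor between the large ribosomal subunit and Xpo1, had 138, 206 and 345 CPM and 208, 391 and 548 CPM (0.83 ± 0.20, adjusted p = 0.00995). Of 12 genes of the nuclear lamina and inner nuclear membrane tested, 1 was higher (median 0.24): Lmnb1, lamin B1, had 1.77, 5.74 and 12.2 CPM in controls and 10.7, 24.5 and 38.9 CPM in mutants (1.75 ± 0.39, adjusted p = 0.00577), and 9 of 10 mutants were above every control. With little collagen none of these 3 passed, with log2 fold changes of 0.95 for Snupn (adjusted p = 0.144), 0.70 for Nmd3 (adjusted p = 0.243) and 1.46 for Lmnb1 (adjusted p = 0.285).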

How the data were processed

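Single 8-cell embryos were profiled from amplified, 3′-biased cDNA and sequenced as single-end reads of 50 bases. The authors deposited raw counts per Ensembl gene (release 82, GRCm38), made per the file headers with featureCounts 1.5.0 on exons, without a strand option, with an overlap of at least 10 bases, each read counted once per gene overlapped, and reads with several alignments included. The headers do not name the aligner. The methods give TopHat2 and SeqMonk counts for genes. Symbols came from GENCODE M21, and Nup62 was matched by its exon coordinates.

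Counts were compared with edgeR 4.0.16 in R 4.3.3 (low-count filter, TMM, quasi-likelihood test, Benjamini-Hochberg adjustment over all genes tested), and single members by exact permutation in scipy on log2(CPM + 1), unadjusted. The test was also run on counts simulated from its own fitted model with independent embryos. That check cannot show the effect of shared mothers or of a batch. DESeq2 1.42.0, other normalizations and filters, correction for exon length within each embryo, thinned counts, a replicate block, subsets of embryos and each embryo left out in turn were alternatives. The subset by collagen transcripts was added after seeing the data. The members were set by the symbol rule, whereas their role groups and the lists of other transport and envelope genes were written with earlier results of these data known.

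Named were all members with an adjusted p under 0.05, in each role the member with the highest RPKM and the one with the largest absolute fold change, Kpna2, Kpna7, Kpnb1, Xpo1, Cse1l, Ran, Rcc1, Nup98, Nup153, Nup62, Ranbp2 and Tpr, the listed transport and envelope genes with an adjusted p under 0.05, and Ehmt2. Nup54, Nup205, Tnpo1, Tnpo3, Ipo11, Nup37 and Trmt2a were named after their values were seen. Marker lists covered cleavage and morula embryos, oocytes, the 2-cell stage, cumulus and granulosa cells, and blood and stroma. The floor was 3 counts.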

Additional observations from a re-analysis of the deposited data

Results flagged for a closer look

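For 30 named members, an embryo was marked where its gap to the nearest embryo of its group on the log2(CPM + 1) scale took more of the group's range than Dixon's 95% critical value. This marked 9 of 60 groups, and chance marks about 1 in 20. Kpna2 had 12.9 CPM in control 9 (nearest embryo 21.1 CPM) and 1.02 CPM in Ehmt2Mat embryo 7 (nearest 13.4 CPM). Control 7 was low for Nup93 (13.2 CPM), Pom121 (58.2 CPM, nearest 112) and Tpr (221 CPM, nearest 356). Control 10 was high for Nup210l (3.79 CPM, nearest 0.603). Among Ehmt2Mat embryos, number 3 was low for Nup155 (53.6 CPM, nearest 117), number 6 was low for Ranbp2 (10.3 CPM, nearest 42.6) and number 10 was high for Seh1l (820 CPM, nearest 482).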

How the results depend on the processing

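The main comparison had 9 members higher and 2 lower, with 9.35% of genes called. RLE gave 9 and 2 (9.44% of genes), upper-quartile normalization 10 and 2 (9.36%), DESeq2 12 and 3 (9.70%), at least 10 counts in every embryo 11 and 3 (19.2%), correction for exon length 10 and 2 (9.62%), thinned counts 10 and 2 (10.6%) and no filter on low counts 7 and 1 (5.67%). With the added demand of a 2-fold change, 3 and 1 remained (5.68%). With embryos of zygotic genotype +/- only, 0 and 0 members and 0 and 0 other pathway genes were called, and with the embryos under 5 CPM of collagen 0 and 0 members and 1 other pathway gene higher (Poldip3) and 1 lower (Thoc3), with fewer embryos in both. Leaving out each embryo gave 4 to 10 members higher and 1 to 3 lower, while the share of all genes called ranged from 7.5% to 10.8%. Higher members numbered 4 without control 2 (8.22% of genes) or control 8 (7.71%). They numbered 5 without control 3 (8.35%) or Ehmt2Mat embryo 2 (8.25%) or 9 (7.81%). Without control 7, 1 member was lower (7.5%). Nup88, Nup62, Tnpo2, Ran and Ranbp1 passed in all 19 such fits.

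Embryo numbers do not pair the groups (correlations of same-numbered embryos from -0.156 to 0.086, mean 0.012, over 9 pairs). With the number as a replicate block, 3 members were higher (Ran, Nup62 and Nup88) and 2 lower (Ranbp1 and Xpo1), with 5.95% of genes called. With the block and the length correction 4 were higher, with 5.79% of genes called. Other pathway genes lower were 2 with DESeq2, under the 10-count filter and without control 2, and those higher were 3 under the 2-fold demand. DESeq2 and the fit without a filter put the median of all genes at 0.14 and 0.129, against -0.043. Of 1077 values of named genes under alternatives, 941 kept the side of the threshold, 114 lost it, 22 gained it and 0 called values changed sign. In both zygotic comparisons RLE, DESeq2 and no filter each called 0 members.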

Other observations

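Over the 11 members with an adjusted p under 0.05, each embryo was set against the 2 group medians of each gene on the log2(CPM + 1) scale. Controls 2, 3 and 7 were nearer to the Ehmt2Mat median in 0 of 11 genes, controls 1 and 9 in 3 and control 10 in 4. Ehmt2Mat embryos 4 and 9 were nearer to it in all 11, and embryos 6 and 10 in 7. The genes were chosen on these embryos, so this describes them and tests nothing.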
